A study of Mus musculus with 24 samples.

Results

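The ordered series followed here runs from normal mouse thyroid to papillary thyroid cancer (PTC) and on to anaplastic thyroid cancer (ATC), and asks which genes moved in steps along it and which stood apart in PTC alone. Its members were chosen by tissue label and are 15 of the 24 arrays: 6 pools of normal glands with the score 0, 4 PTC with the score 1 and 5 ATC with the score 2. The 9 recurrent tumours were given no score. RNA from all samples was hybridised to Affymetrix Mouse430A_2 arrays, and the deposited values are log2 intensities, so a difference of 1 is a 2-fold difference. The series is titled for resistance to BRAF inactivation through Met and Hgf in mouse ATC. The labels give no genotype, strain, treatment, time or age for any of the 3 groups. Of the normal pools, 4 have WT and 2 have Cre in their titles, and no label says which alleles these words stand for. No label says that the tumours were pooled or that they came from separate animals, so a p-value here measures only how these samples spread, part of which may be technical. The scores are evenly spaced by choice. They stand for separate tissues and for no span of time.

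Follicular cells make thyroid hormone on thyroglobulin, a protein stored outside the cell, with a set of iodide pumps, oxidases and deiodinases that the factors Pax8, Nkx2-1 and Hhex help to keep on. PTC is a differentiated tumour that keeps a follicular or papillary architecture, and it is most often driven by the BRAF, MEK and ERK kinase cascade. ATC is undifferentiated, divides fast and is known for heavy infiltration by macrophages, and it is held to arise in many cases from a differentiated tumour.

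Arrays of the 15 samples had medians between 7.45 and 7.58, and 12393 genes were tested, each through 1 probe set. Sample titles fall into 3 kinds: JK (4 normal pools, all 4 PTC and ATC replicates 1 and 2), Cre (normal replicates 5 and 6) and a bare number (ATC replicates 3, 4 and 5). PTC was present in JK titles alone, so a value is also given for those 10 arrays where it bears on a result. The control probe sets for Gapdh, read near the 3′ end minus near the 5′ end, a sign of RNA or labelling quality, gave 0.64 to 0.98 in normal pools. The same difference was 1.11 to 1.60 in PTC, above every other array, then 0.82 and 0.96 in JK-titled ATC and 0.06 to 0.15 in number-titled ATC. It moved with the PTC group, and its part in the results was not tested beyond the fit with it as a covariate that is given beside the counts. Normal replicate 5 stood apart from the other pools in many genes, among them the fat marker Ucp1 at 5.60 against 10.86 to 12.18 and the neuroendocrine Scg2 at 8.10 against 12.24 to 12.59. ATC replicate 4 kept Tg at 13.48, where the other ATC arrays lay between 4.46 and 5.98. The normal pools carried the follicular markers Tg (14.80 to 14.96 with a median of 14.88) and Pax8 (11.12 to 11.98 with a median of 11.47), and also the parathyroid hormone gene Pth (14.42 to 14.78 with a median of 14.73). Foxe1, Calca and Gcm2, further defining markers of follicular, C and parathyroid cells, were not among the genes tested here.

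Members of the patterns below were set beside their promoters, because genes that move together can share upstream sequence. For each gene the 250 bases before its start were read 5′ to 3′ on the strand of the gene from RefSeq promoters of GRCm38.p6. Both strands were searched for TGANTCA, where N is any base, and for CTCAAG, the core letters of an Nkx2-1 site. TGANTCA takes in the AP-1 site TGACTCA, which binds Fos and Jun family dimers such as those with Fosl1. It also takes in matches with other middle bases, so its shares are not of AP-1 sites alone. Both motifs were chosen after the values were known. The first 2 sequences belong to genes that rose in both steps, the protease Mmp13 and the urokinase receptor Plaur, and the last 2 to surfactant genes that peaked in PTC. Capitals mark the motif.
Mmp13 (chr9:7272264-7272513, + strand): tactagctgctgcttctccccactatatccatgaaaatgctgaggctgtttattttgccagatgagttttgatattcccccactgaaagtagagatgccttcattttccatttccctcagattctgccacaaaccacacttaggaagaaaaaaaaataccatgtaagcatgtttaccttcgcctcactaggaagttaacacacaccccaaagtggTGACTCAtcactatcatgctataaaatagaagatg
Plaur (chr7:24462233-24462482, + strand): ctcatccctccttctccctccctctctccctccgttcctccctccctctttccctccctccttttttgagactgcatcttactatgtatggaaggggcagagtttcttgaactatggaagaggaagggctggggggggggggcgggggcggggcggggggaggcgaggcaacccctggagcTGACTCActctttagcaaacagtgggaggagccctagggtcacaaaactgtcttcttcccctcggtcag
Sftpa1 (chr14:41131538-41131787, + strand): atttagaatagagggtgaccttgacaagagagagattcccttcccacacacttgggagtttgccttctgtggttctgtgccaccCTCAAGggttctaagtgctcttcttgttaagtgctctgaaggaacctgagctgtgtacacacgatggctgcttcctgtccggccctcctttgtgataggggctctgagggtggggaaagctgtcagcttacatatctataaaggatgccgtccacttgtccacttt
Sftpb (chr6:72304360-72304609, + strand): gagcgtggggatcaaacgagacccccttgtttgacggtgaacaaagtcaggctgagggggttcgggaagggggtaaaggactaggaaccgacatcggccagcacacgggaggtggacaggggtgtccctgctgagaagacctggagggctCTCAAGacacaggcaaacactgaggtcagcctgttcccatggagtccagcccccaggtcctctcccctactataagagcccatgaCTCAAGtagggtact
The AP-1 letters begin 35 bases before the gene start in Mmp13 and 69 bases before it in Plaur. CTCAAG begins 166 bases before the start in Sftpa1, and 100 and 15 bases before it in Sftpb. TGANTCA stood in 8.31% of the promoters of genes rising in both steps (29 of 349 with a promoter in the table), against 6.84% of all tested genes and 7.82% of all 27025 genes of the table. In the other patterns the share was 5.02% (falling), 6.72% (peak) and 4.22% (dip). CTCAAG stood in 15% of promoters of peaking genes and in 14.9% of those of all tested genes, and in 11.7%, 14.6% and 14.9% of rising, falling and dipping ones. The shares differ by a few percentage points, and a match is a description of these letters, not a bound site.

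Which genes follow the order was asked with limma through a pair of measures. The slope is the change per step along the scores 0, 1 and 2. With these group sizes it weights normal by -0.512, PTC by 0.024 and ATC by 0.488, so it is close to the ATC minus normal difference spread over 2 steps. The departure is PTC minus the midpoint of normal and ATC, and is 0 for a gene on a straight line. A call is an adjusted p below 0.05 in limma (Benjamini-Hochberg over 12393 genes). The slope was called for 6776 genes (54.7%), of which 3013 rose (24.3%) and 3763 fell (30.4%). The departure was called for 3895 genes (31.4%), with PTC above the midpoint in 1899 (15.3%) and below it in 1996 (16.1%). Of the 6776 slope calls, 4203 had no called departure and 2573 had one. Across all genes the median slope was -0.04 and the median departure 0.01.

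A called slope does not show a step in each interval, so genes were also sorted by both steps, PTC minus normal and ATC minus PTC, each called on its own. Both steps rose for 445 genes (3.59%) and both fell for 498 (4.02%). PTC was a peak for 765 genes (6.17%) and a dip for 658 (5.31%). The first step alone was called upward for 867 genes (7%) and downward for 1296 (10.5%), and the second step alone upward for 1332 (10.7%) and downward for 1506 (12.2%). Counted singly, the first step was called upward for 16.8% and downward for 19.8% of genes, the second for 19.6% and 22.3%, and ATC minus normal for 24.4% and 30.6%. No step was called for 5026 genes (40.6%), 1093 of which had a called slope. The PTC arrays enter both steps with opposite signs, so an error in them favours peaks and dips and works against steps.

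With the Gapdh 3′ minus 5′ difference as a covariate, a fit chosen after seeing the data, the slope was called for 6485 genes and the departure for 1183. Rising genes then numbered 96, falling genes 146, peaks 296 and dips 243. Of the genes first placed in each pattern, 89 of 445, 120 of 498, 237 of 765 and 120 of 658 kept it. In the 10 JK-titled arrays alone, which are part of the 15 and no independent check, 339 of 445 rising, 396 of 498 falling, 599 of 765 peaking and 446 of 658 dipping genes kept the called pattern. In those arrays all 445 rising, all 498 falling, all 765 peaking and 657 of 658 dipping genes had both steps of the same sign. Without normal replicate 5 the counts were 556 rising, 570 falling, 792 peaks and 659 dips. The plot of the first step against the second shows the 4 patterns as the corners of a cloud.

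**Figure D1:**
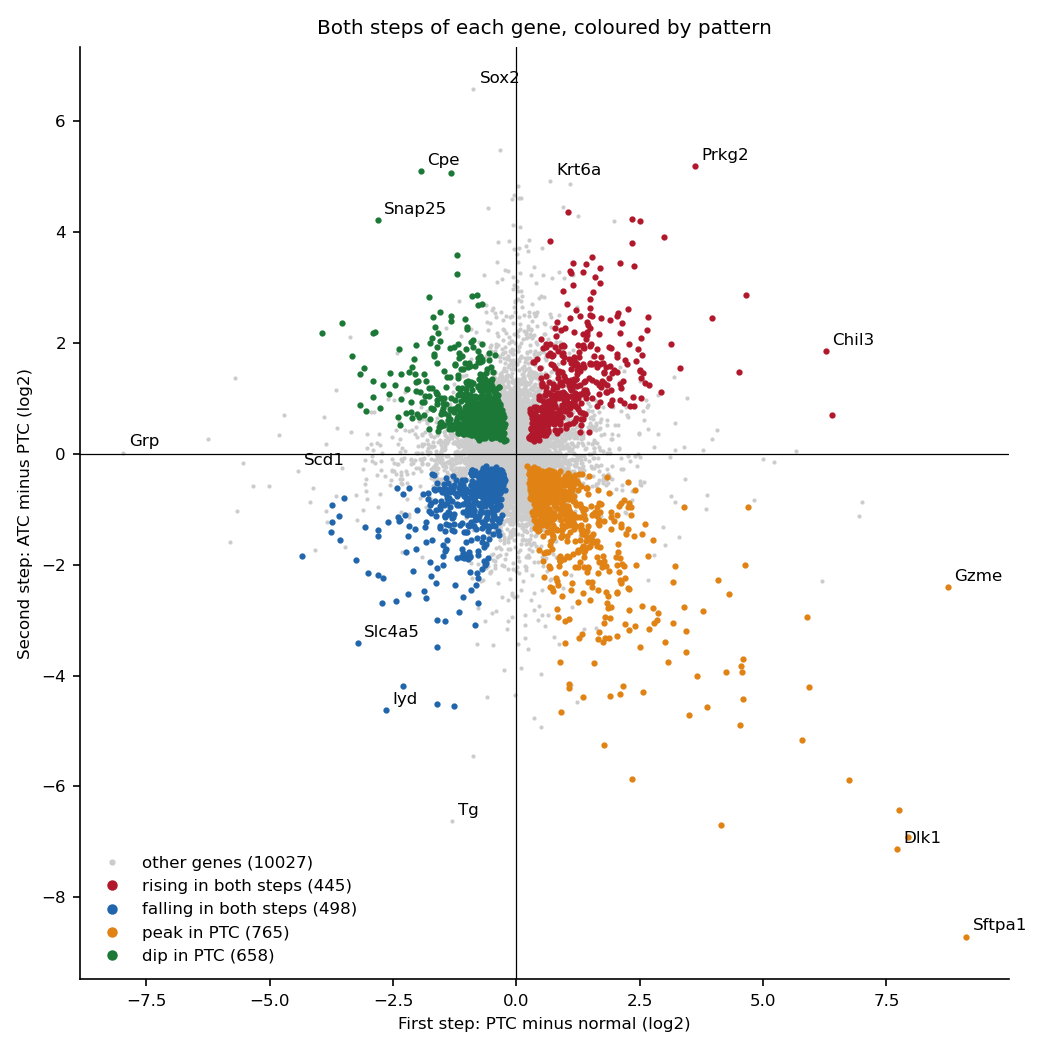
Each point is a gene, with PTC minus normal on the x axis and ATC minus PTC on the y axis, both in log2 units, and colour marks the 445 rising, 498 falling, 765 peaking and 658 dipping genes. Sftpa1 lies in the lower right (9.12 and -8.71), Prkg2 in the upper right (3.62 and 5.19), Slc4a5 in the lower left (-3.22 and -3.42) and Cpe in the upper left (-1.94 and 5.09).

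Genes rising in both steps had a median slope of 1.02 and a median departure of -0.03, with 158 of 445 exceeding 1 in both steps. In 210 of them every normal pool lay below every PTC and every PTC below every ATC array, an order found for 236 genes in all (1.9%). Prkg2, a cyclic GMP-dependent kinase, came first among them when genes were ranked by the smaller of their steps. It read 3.79 to 4.97 (median 4.19) in the normal pools, 8.08, 6.78, 8.26 and 8.25 in the 4 PTC and 13.28, 12.76, 12.71, 13.39 and 13.05 in the 5 ATC arrays. The 3 groups do not overlap, and PTC replicate 2 was the lowest PTC array. The slope was 4.39 per step (SE 0.13, limma adjusted p = 6.87e-12), while its other probe set gave a slope of 1.98. That probe set had a departure of -1.88, against -0.78 here, so its PTC level lay further below the straight line and nearer to normal.

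Tnnt2, cardiac troponin T, stood between 4.29 and 4.73 in normal (median 4.48), at 7.78, 7.21, 7.32 and 7.67 in PTC and at 12.04, 11.05, 10.91, 11.49 and 11.54 in ATC. Its groups were also apart, with a slope of 3.44 (SE 0.09, limma adjusted p = 2.72e-12). Timp1, the secreted inhibitor of matrix metalloproteinases, gave 5.79 to 8.93 (median 6.15) in normal, 11.20, 10.23, 10.03 and 10.92 in PTC and 12.61, 12.42, 12.96, 14.14 and 13.09 in ATC. Even its highest pool, normal replicate 5 at 8.93, lay below the lowest PTC array, and the slope was 3.23 (SE 0.24, limma adjusted p = 4.78e-08).

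Arg1, arginase, which is high in alternatively activated macrophages, gave 4.07 to 6.35 (median 4.57) in normal, 7.04, 6.56, 7.33 and 8.53 in PTC and 11.21, 10.92, 12.88, 10.55 and 12.25 in ATC. Here the second step (4.20) was larger than the first (2.51), and the groups did not overlap. Ptgs2, the inducible prostaglandin synthase, gave 4.03 to 7.12 (median 4.28) in normal, 7.32, 6.68, 6.57 and 7.65 in PTC and 10.60, 10.03, 10.51, 12.18 and 10.97 in ATC. Normal replicate 5 overlapped PTC in this gene, and ATC lay above all other arrays (slope 3.06, limma adjusted p = 1.21e-07). The other probe set of Ptgs2 gave a slope of 1.83 and a departure of -1.52, against -0.73 here. The protease Prss22 rose by 2.66 and 2.46, Gzmd, a granzyme, by 2.39 and 3.38, and Ear3, a ribonuclease of eosinophils, by 4.66 and 2.86. Granzymes and ribonucleases of this type have near-identical copies, so their probe sets may read relatives.

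Some rising genes moved in nearly equal steps. The membrane protein gene Emp3 rose by 1.23 and then 1.22, the collagen Col8a1 by 1.91 and 1.90, and Srpx2, a secreted protein, by 1.62 and 1.64. The other probe set of Col8a1 was less even, with a slope of 1.61 and a departure of -0.88, against 1.91 and 0.01 here. Srpx2 read 5.0 to 6.26 (median 5.53) in normal, 8.01, 6.82, 6.44 and 7.54 in PTC and 8.13, 8.16, 9.16, 9.69 and 9.09 in ATC, with no overlap between groups. Of the 445 rising genes, 295 had a departure within 0.25 of 0, 13 were called above the line and 41 below it.

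Not every large slope was a pair of even steps. The 5 largest rises by slope were Prkg2, Chil3, Ear3, Krt20 and Tnnt2. Chil3, a chitinase-like protein of activated macrophages, went from a mean of 4.32 (SD 0.93, n = 6) to 10.59 (SD 0.81, n = 4) and 12.44 (SD 0.96, n = 5), so 77.2% of its way was covered in PTC. Krt20, an intermediate filament of simple epithelia, covered 90.1% of its way in the first step (6.40, then 0.70). Their departures were 2.21 and 2.85, both called by limma (adjusted p = 0.00282 and 3.49e-07).

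Genes falling in both steps had a median slope of -0.77 and a median departure of 0.00, and 329 of 498 kept every normal above every PTC and every PTC above every ATC array, against 391 genes in all (3.16%). The bicarbonate cotransporter Slc4a5 read 11.77 to 12.12 (median 11.92) in normal, 8.59, 9.14, 8.49 and 8.61 in PTC and 4.94, 5.23, 4.53, 7.07 and 4.66 in ATC. ATC replicate 4 was the highest ATC array and still below every PTC array. The slope was -3.32 (SE 0.17, limma adjusted p = 1.19e-09), with a departure of 0.10 that was not called.

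Iyd, the deiodinase that recovers iodide from unused hormone precursors, gave 13.24 to 13.42 (median 13.30) in normal, 9.95, 11.24, 10.59 and 10.89 in PTC and 5.52, 5.32, 4.56, 9.99 and 4.83 in ATC. It fell by 2.65 and then by 4.62, and ATC replicate 4 overlapped PTC. Pax8, which specifies the follicular lineage, gave 11.12 to 11.98 (median 11.47) in normal, 9.26, 10.15, 10.19 and 9.94 in PTC and 6.47, 6.74, 5.78, 7.23 and 5.75 in ATC. No Pax8 value overlapped between groups, the slope was -2.53 (SE 0.13, limma adjusted p = 1.19e-09), and the departure of 0.94 was called (adjusted p = 0.00993) because the second step was the larger.

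Others of the largest falls in both steps were the ascorbate transporter Slc23a1 (by 2.70 and 2.24), the phospholipase Pla2g5 (by 2.19 and 2.53), the epithelial transcription factor Tfcp2l1 (by 2.81 and 2.18) and the carboxylesterases Ces1e (by 2.44 and 2.66) and Ces1d (by 2.30 and 4.18). Other probe sets of Tfcp2l1 gave slopes of -0.06 and -0.02 against -2.50 here, and Ces1 genes have near copies. Adipoq, the adipocyte hormone adiponectin, fell by 2.72 and 2.70 and is described with the fat markers below. The most even falls were those of S100a1, a calcium-binding protein, of the surface protein gene Ly6g6d and of Fgfr2, a fibroblast growth factor receptor. Fgfr2 read 10.90 to 11.47 (median 11.25) in normal, 9.26, 9.46, 9.03 and 8.69 in PTC and 6.79, 7.83, 6.49, 7.07 and 6.82 in ATC, 3 separate levels with falls of 2.10 and 2.11. The other probe set of Fgfr2 was less even, with a slope of -1.48 and a departure of -0.53, and that of S100a1 gave -1.24 and -0.29.

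**Figure D2:**
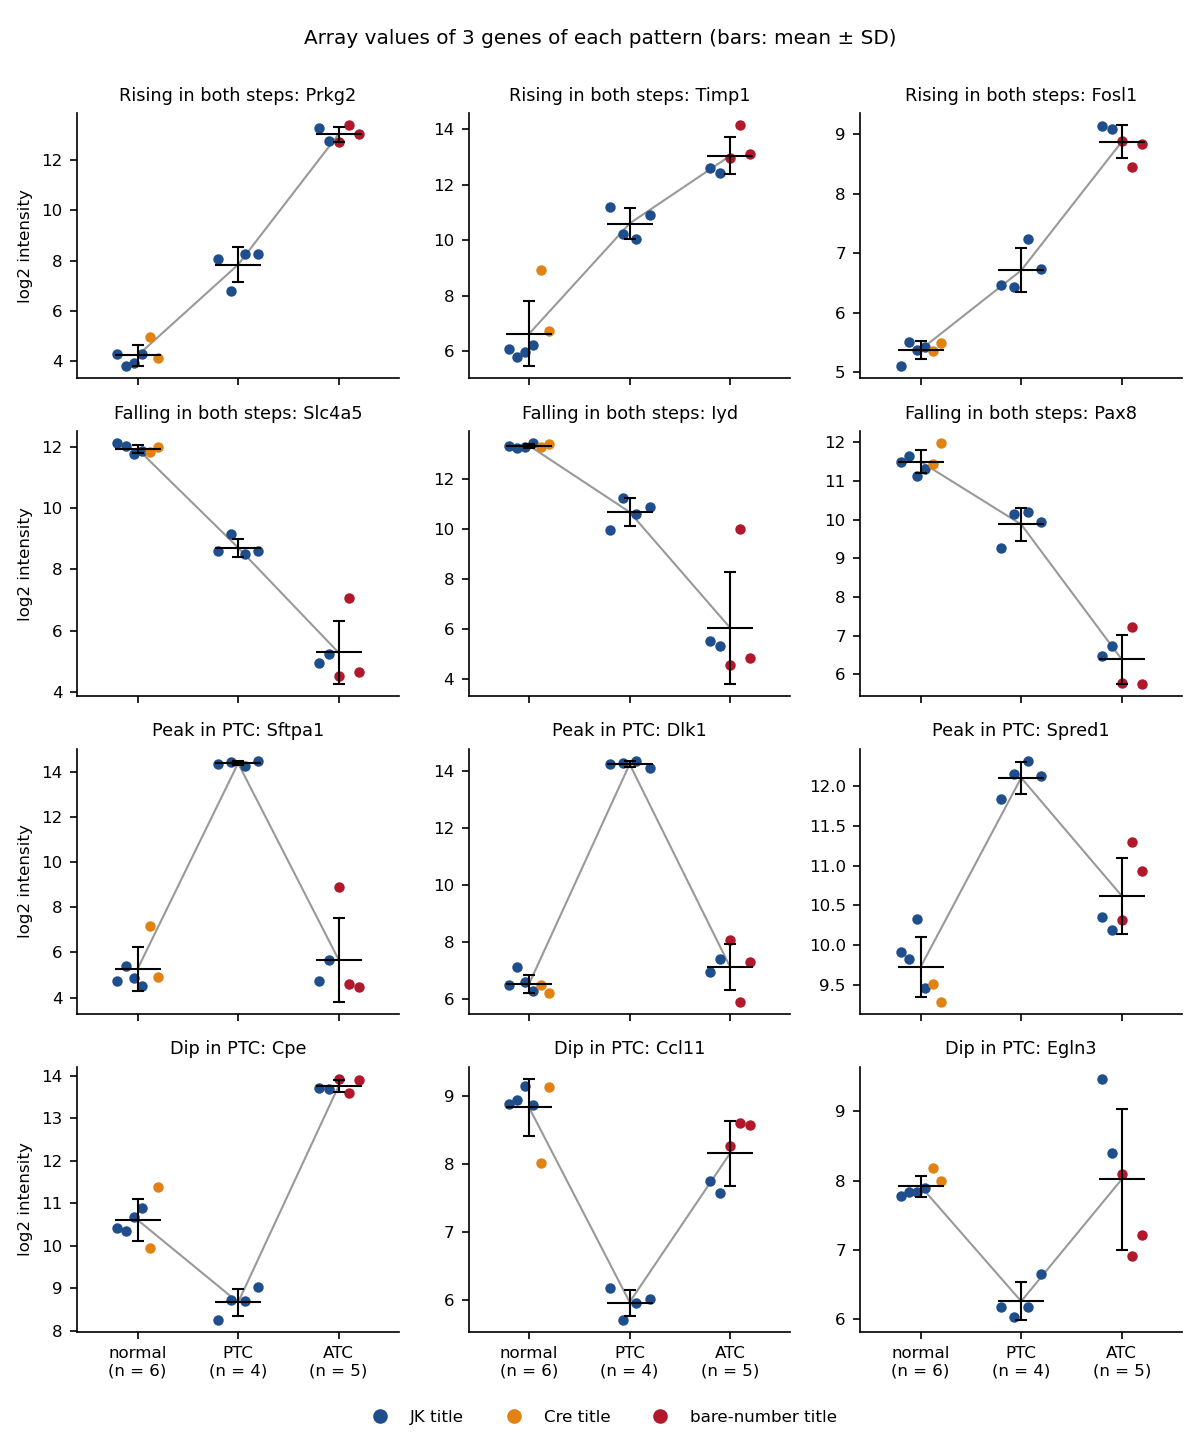
Log2 intensity of 3 genes of each pattern on the 15 arrays, with the mean and SD of each group as black bars, a grey line joining the means, and colour for the title of the sample. Prkg2, Timp1 and Fosl1 climb, Slc4a5, Iyd and Pax8 descend, Sftpa1, Dlk1 and Spred1 stand highest in PTC, and Cpe, Ccl11 and Egln3 lowest.

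The falls with the largest slope were of several shapes. Grp, gastrin-releasing peptide of neuroendocrine cells, ran from 11 to 13.51 (median 12.43) in normal to 4.06, 4.86, 4.03 and 4.41 in PTC and 5.45, 4.23, 3.88, 4.46 and 3.78 in ATC. It reached its low level in PTC, with a first step of -7.98 and a second of 0.02, and the tumour groups overlap. Tg, the hormone precursor, had the larger part of its fall in the second step: it gave 14.80 to 14.96 (median 14.88) in normal, 13.49, 14.24, 13.46 and 13.11 in PTC and 5.98, 5.29, 4.46, 13.48 and 5.51 in ATC. Its first step of -1.31 was not called (limma adjusted p = 0.459) although every PTC array was below every normal pool, and its second of -6.63 was called (adjusted p = 0.000801) with ATC replicate 4 at a level within the range of PTC. Dio1, the deiodinase that activates thyroid hormone, fell by 5.80 in the first step, and the second step of -1.59 was not called (adjusted p = 0.0652).

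Pth, made by the parathyroid glands next to the thyroid, was uneven within tumour groups. Its values were 14.42 to 14.78 (median 14.73) in normal, 4.65, 10.51, 10.77 and 10.13 in PTC and 14.20, 11.44, 4.27, 4.37 and 5.62 in ATC, so ATC replicate 1 was near the normal pools and 3 ATC arrays were below 6. The slope of -3.40 (SE 0.82, limma adjusted p = 0.00236) was not called in JK-titled arrays alone (-1.57, adjusted p = 0.0912) or with number titles as a block (adjusted p = 0.175). In bulk RNA, fewer cells of a type and less RNA per cell cannot be told apart.

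Genes with a peak in PTC had a median departure of 0.79, and in 513 of the 765 every PTC array was above every normal and every ATC array, as in 583 genes in all (4.7%). ATC minus normal was not called for 463 of them, was called higher for 103 and lower for 199. The surfactant protein genes, which lung alveolar cells use to lower surface tension and bind microbes, led this pattern. Sftpa1 gave 4.50 to 7.18 (median 4.90) in normal, 14.34, 14.44, 14.29 and 14.49 in PTC and 4.72, 5.66, 8.92, 4.60 and 4.48 in ATC. Its PTC arrays lay close together and far above all others, ATC replicate 3 was the highest ATC array, and the departure was 8.92 (SE 0.66, limma adjusted p = 3.37e-07).

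Sftpb read 7.30 to 8.15 (median 7.53) in normal, 14.40, 14.41, 14.43 and 14.25 in PTC and 8.20, 8.97, 10.58, 7.03 and 7.65 in ATC, and Sftpd went from a mean of 6.57 (SD 1.39, n = 6) to 14.51 (SD 0.05, n = 4) and back to 7.60 (SD 1.77, n = 5). Of 10 measured surfactant and alveolar genes, 7 peaked in PTC and 9 had a called departure above the line, and the list's median departure was 3.06 against 0.01 over all genes. Slc34a2, a phosphate carrier of alveolar cells, had a departure of 3.20, and Aqp5, a water channel, of 2.99, and neither was called with the Gapdh difference as a covariate (adjusted p = 0.176 and 0.231). The other members, Sftpc, Abca3 and Ager, fell in the second step alone. Ager, a receptor of alveolar type I cells, was at 12.24 in normal, 11.64 in PTC and 7.25 in ATC (second step -4.39, limma adjusted p = 1.87e-08). Napsa, the protease that processes surfactant proteins, was high in normal pools already, at a mean of 11.86, and went to 13.75 in PTC and down to 9.38 in ATC, with every ATC array below every normal pool.

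Dlk1, a membrane ligand of imprinted origin, read 6.22 to 7.11 (median 6.48) in normal, 14.24, 14.29, 14.36 and 14.11 in PTC and 6.93, 7.39, 8.06, 5.89 and 7.30 in ATC. The departure was 7.43 (SE 0.27, limma adjusted p = 9.87e-11), and normal and ATC arrays overlapped. Meg3 and Rian, noncoding RNAs made from the same imprinted region and looked up after the Dlk1 values were seen, peaked as well, with departures of 3.31 and 4.15. Rian gave 6.45 to 7.97 (median 7.84) in normal, 12.29, 12.24, 12.41 and 12.00 in PTC and 8.16, 8.05, 8.53, 9.85 and 8.07 in ATC. Dlk1 is made from the paternal copy and Meg3 and Rian from the maternal copy of that region, and all of these probe sets were highest in the 4 PTC arrays.

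Chil1, a chitinase-like glycoprotein, gave 5.11 to 6.46 (median 5.93) in normal, 13.94, 13.84, 13.28 and 13.22 in PTC and 6.62, 8.48, 6.69, 6.44 and 7.47 in ATC. Its departure of 7.09 (SE 0.32, limma adjusted p = 1.61e-09) stood beside an ATC minus normal difference of 1.32. Fetub, a secreted protease inhibitor, had a departure of 5.47, and Atp6v1c2, a proton pump subunit of specialised epithelia, of 4.72. Dcpp3, a secreted protein of salivary glands with close relatives, peaked with a departure of 4.51 (SE 1.11), but ATC replicate 2 stood at 13.25 where the other ATC arrays lay between 5.91 and 6.23, and the call was lost with the Gapdh difference as a covariate (adjusted p = 0.707).

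Genes with a dip in PTC had a median departure of -0.74, and in 440 of 658 every PTC array lay below every normal and ATC array, as in 509 genes in all (4.11%). Cpe, the carboxypeptidase that trims peptide hormones, read 9.94 to 11.38 (median 10.55) in normal, 8.26, 8.72, 8.69 and 9.02 in PTC and 13.71, 13.68, 13.93, 13.59 and 13.90 in ATC. The 3 groups do not overlap, with ATC above normal, and the departure was -3.51 (SE 0.20, limma adjusted p = 2.51e-08). Its other probe set gave a departure of -0.33. Snap25, a vesicle fusion protein of neurons and endocrine cells, gave 4.66 to 8.47 (median 7.48) in normal, 4.38, 4.27, 4.32 and 4.92 in PTC and 7.20, 8.54, 9.12, 9.34 and 9.20 in ATC, where normal replicate 5 at 4.66 was as low as PTC. The departure of -3.51 was not called with the Gapdh covariate (adjusted p = 0.144).

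Ccl11, the chemokine that draws eosinophils, gave 8.01 to 9.15 (median 8.91) in normal, 6.17, 5.71, 5.96 and 6.01 in PTC and 7.75, 7.57, 8.27, 8.61 and 8.58 in ATC. PTC was separate from both other groups, which overlap, and the departure was -2.53 (SE 0.22, limma adjusted p = 1.14e-06). The prostaglandin receptor Ptger3 (departure -2.94), the metal transporter Slc39a8 (-2.54), Rhpn2 (-3.05), Nt5dc2 (-1.99) and the sialyltransferase St6gal1 (-2.13) complete the 8 dips ranked highest by the smaller of their steps. The departure of Nt5dc2 was not called with the Gapdh covariate (adjusted p = 0.0568), nor that of Rhpn2 with all 24 arrays in the fit (adjusted p = 0.0555). Other probe sets were nearer to 0 for Ptger3 (-0.12), Slc39a8 (-0.43) and St6gal1 (-0.56). Among the peaks, the other probe set of Sftpa1 gave 8.72 against 8.92.

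**Figure D3:**
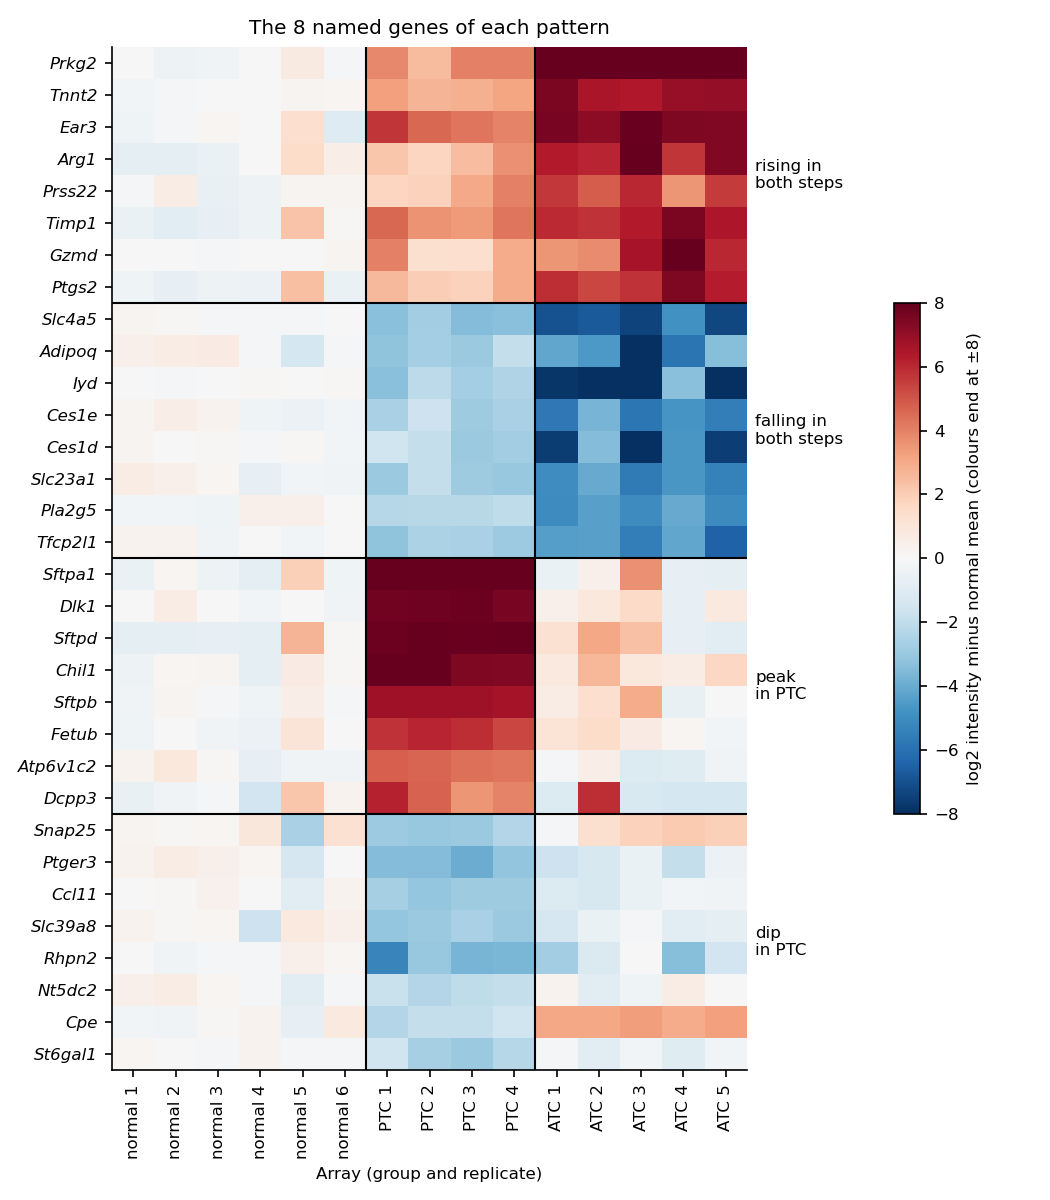
Colour gives log2 intensity minus the normal mean for the 8 named genes of each pattern (rows) on the 15 arrays (columns). PTC columns are intermediate in the rising and falling blocks and extreme in the peak and dip blocks, and ATC replicate 2 is the dark cell of Dcpp3.

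To see which kinds of genes took which shape, 32 lists with 417 measured genes were read by their counts and medians. Each count is to be read beside the share over all genes, 24.3% for a called rising and 30.4% for a called falling slope, with the pattern shares given above. Mitosis and spindle genes rose together: all 19 measured had a called rising slope (against 24.3% of all genes), and 14 rose in both steps. Their median slope was 1.21 beside -0.04 over all genes, and the list mean was 1.17 to 2.00 above normal in PTC and 2.15 to 3.13 above it in ATC. Birc5, survivin, which guards chromosome segregation, gave 4.28 to 6.53 (median 4.79) in normal, 7.81, 6.89, 6.93 and 8.13 in PTC and 9.39, 8.96, 9.07, 8.44 and 9.45 in ATC, and normal replicates 3 and 5 were the highest pools. Cdk1, the mitotic kinase, rose by 1.97 and 1.51. The checkpoint kinase Bub1 rose by 1.45 and 2.32, though its other probe set gave a slope of 0.32. Mki67, the proliferation antigen, rose by 2.23 in the first step, and its second of 0.85 was not called (limma adjusted p = 0.189).

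DNA replication genes rose by several routes. A rising slope was called for 17 of 19, with 5 rising in both steps, 5 in the first alone and 5 in the second alone. Cdt1, which loads the helicase on DNA, rose by 1.89 and then showed 0.02, and the helicase subunit Mcm7 rose by 1.22 and then showed -0.04. Rrm2, a subunit of ribonucleotide reductase, rose in both (2.03 and 1.48).

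Fibrillar collagen and matrix genes had 16 of 20 called rising by slope (against 24.3% of all genes), 10 of them in both steps (against 3.59%), with a median slope of 1.00. Col1a1, the main chain of type I collagen, gave 7.36 to 7.88 (median 7.51) in normal, 11.47, 9.85, 9.27 and 10.17 in PTC and 12.01, 12.02, 12.60, 12.93 and 12.53 in ATC. The groups are separate, and PTC replicate 1 was nearest to ATC (slope 2.44, SE 0.15, limma adjusted p = 5.5e-09). Lox, which cross-links collagen, rose by 2.09 and 2.18, with a slope of 2.14 where its other probe sets gave 0.38 and 2.01. Tnc, a matrix glycoprotein, had a first step of -0.91 that was not called (limma adjusted p = 0.0888) and rose by 2.84 in the second, and its slope was not called in JK-titled arrays (adjusted p = 0.241).

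Mesenchymal transition genes all had a called rising slope (15 of 15), and 10 of them rose in the second step alone and 3 in both. Foxc2, a transcription factor of mesenchyme, was 4.93 to 5.61 (median 5.24) in normal, 5.84, 6.01, 5.36 and 5.67 in PTC and 8.60, 7.46, 7.86, 10.18 and 8.49 in ATC. PTC arrays overlapped the pools, and all ATC arrays were higher (second step 2.80, limma adjusted p = 4.68e-05). Acta2, smooth muscle actin, rose by 1.92 in the second step after 0.05 in the first. Cdh2, N-cadherin, rose by 2.19 in the second step, with ATC replicate 1 at 6.67 among the normal values, and its slope was not called in JK-titled arrays, with all 24 arrays in the fit or with number titles as a block (limma adjusted p = 0.32, 0.257 and 0.0841). Cdh11, a cadherin of fibroblasts, rose in both (2.55 and 1.78). Epithelial junction genes had 3 of 18 called rising and 4 called falling by slope, both below the shares over all genes (24.3% and 30.4%), and their list mean in ATC ran from -1.42 in replicate 4 to 0.60.

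Matrix metalloproteinase genes and their inhibitors mostly rose. Of 13 measured, 12 had a called rising slope, with 5 rising in both steps, 2 in the first alone and 5 in the second alone and a median slope of 1.48. Mmp13, a collagenase whose promoter is printed above, gave 3.68 to 6.72 (median 4.24) in normal, 8.72, 7.07, 5.59 and 6.31 in PTC and 10.49, 10.11, 11.74, 12.79 and 10.71 in ATC. Normal replicate 5 reached into the PTC range, and ATC was above every other array (slope 3.27, SE 0.32, limma adjusted p = 5.33e-07). Plaur gave 6.22 to 7.55 (median 6.42) in normal, 8.84, 8.44, 8.90 and 8.79 in PTC and 11.12, 11.24, 11.85, 10.22 and 11.75 in ATC, 3 separate levels with rises of 2.04 and 2.49. Plau, the urokinase it binds, rose in the second step alone, by 3.69 after -0.05. Timp3, another inhibitor of these proteases, fell in the first step alone.

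Macrophage genes rose in 20 of 21 cases by slope, 8 in both steps, 4 in the first alone and 4 in the second alone, and 1, the scavenger receptor Marco, peaked. The list mean was 1.14 to 1.99 above normal in PTC and 2.41 to 3.03 above it in ATC, and normal replicate 5 stood at 1.31. Marco was at a mean of 5.02 in normal, 7.22 in PTC and 4.97 in ATC, a departure of 2.22 (SE 0.20, limma adjusted p = 1.55e-06). Clec4n, a lectin receptor of myeloid cells, rose in the first step (4.07), and Itgam, an integrin of myeloid cells, in the second (2.14). Of 13 T and NK cell genes, 5 had a called falling slope and none a rising one, where 30.4% and 24.3% of all genes had them, so the falls are near the share over all genes. Of 7 B and plasma cell genes, 1 had a called rising and 2 a called falling slope, both below those shares, and the list mean ran from -0.94 to 0.64 across ATC arrays. Cd79b, a B cell receptor subunit, was 1 of the 2 and fell by 2.03 in the second step. The skeletal muscle list, for muscle beside the gland, had 1 of 12 genes called rising and 1 called falling by slope, both below the shares over all genes, while its mean ran from -2.44 to 1.69 across ATC arrays.

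Of 12 neutrophil genes, 6 had a called rising slope and 1 a called falling one (against 24.3% and 30.4% of all genes), 2 rose in both steps and 1 peaked. The calprotectin subunit S100a8 rose by 2.27 and 2.61, while Lcn2, an iron-scavenging protein, peaked with 5.26 to 11.16 (median 6.07) in normal, 13.43, 13.17, 12.98 and 12.87 in PTC and 11.42, 11.81, 8.84, 9.71 and 9.06 in ATC. Its pools were spread widely, with normal replicates 5 and 6 the highest, and the departure of 4.42 was lost with the Gapdh covariate (adjusted p = 0.413). Granule protease genes mostly rose, with a called rising slope for 11 of 14 and a called falling one for 1. They did so at different steps: 5 of 14 rose in the second alone (against 10.7% of all genes), and the basophil protease Mcpt8 rose in the first step (7.01, then -0.87 with adjusted p = 0.0863 in limma). Gzme was the 1 that peaked (8.75, then -2.41).

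Of 13 stress keratin and squamous genes, 10 had a called rising slope, and 6 rose in the second step alone. Krt6a, a keratin of wounded epithelium, gave 4.86 to 5.57 (median 5.07) in normal, 5.11, 5.12, 7.11 and 6.03 in PTC and 12.39, 10.91, 9.53, 9.87 and 11.10 in ATC. The second step was 4.92 (limma adjusted p = 2.78e-06), 2 PTC arrays lay above the pools, and other probe sets gave slopes of 0.82 to 1.34 against 2.75. Sprr1a, a cornified envelope protein, rose by 4.45 in the second step. Sox2, a factor of foregut progenitors placed in the airway list, gave 4.05 to 6.42 (median 4.25) in normal, 3.76, 3.76, 3.99 and 3.82 in PTC and 10.46, 10.74, 9.01, 11.26 and 10.55 in ATC. Every PTC array was below every pool, though that first step of -0.87 was not called (limma adjusted p = 0.144), and the gene rose by 6.57 in the second step (limma adjusted p = 8.42e-08).

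**Figure D4:**
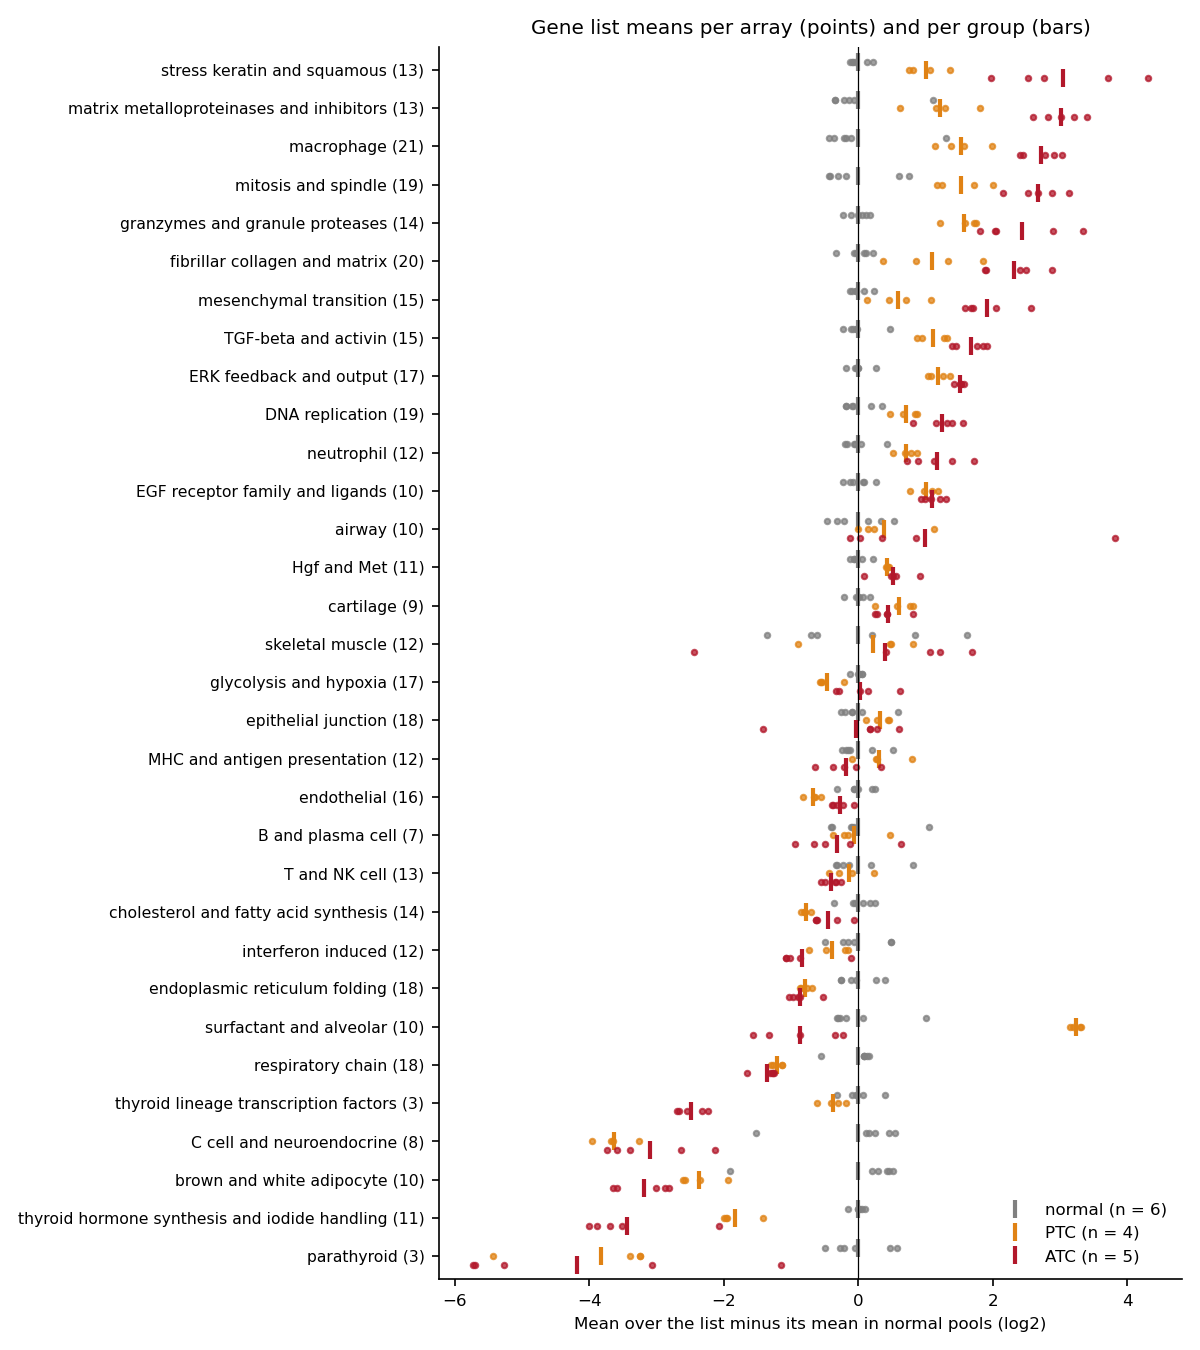
Mean over the measured genes of each list (number in brackets) minus its mean in normal pools, in log2 units, with a point per array and a bar per group. Mitosis, macrophage and matrix lists step from normal to PTC to ATC, surfactant genes lie at 3.15 to 3.31 in PTC and below 0 in ATC, and the respiratory chain list at -1.13 or lower in both tumour groups.

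Several lists had most of their change in the first step. All 18 measured respiratory chain genes had a called falling slope (against 30.4% of all genes), and 14 fell in the first step alone. Their list mean was -1.30 to -1.13 in PTC and -1.66 to -1.26 in ATC relative to normal. Cox7a1, a cytochrome oxidase subunit of muscle and fat, fell by 3.05 and then showed -0.45, and Sdhb, of succinate dehydrogenase, fell by 1.23 and then showed 0.35. Ppargc1a, the coactivator that drives mitochondrial genes, fell in both steps, with 9.65 to 10.33 (median 9.85) in normal, 7.59, 8.10, 7.53 and 7.61 in PTC and 5.91, 6.11, 7.04, 6.07 and 4.54 in ATC and no overlap. Endoplasmic reticulum folding genes, which serve a secretory gland, had 15 of 18 called falling by slope, and 12 fell in the first step alone. Sdf2l1, a chaperone partner, fell by 2.13 and then showed -0.10.

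Adipocyte, C cell and parathyroid markers, of tissues that lie in or beside the gland, had most of their falls in the first step as well. All 10 adipocyte genes had a called falling slope, 7 fell in the first step alone and 2, Adipoq and Retn, in both. Adipoq gave 10.81 to 12.87 (median 12.39) in normal, 9.0, 9.47, 9.22 and 10.29 in PTC and 8.04, 7.60, 3.18, 6.38 and 8.79 in ATC, with no overlap and the widest spread in ATC. Of 8 C cell and neuroendocrine genes, 6 fell in the first step alone (against 10.5% of all genes). Calcb, a calcitonin gene relative, rose in the second alone, from a PTC mean of 4.92 to 8.73 in ATC. Normal replicate 5 was low in the adipocyte list (-1.91) and in the C cell list (-1.52). How far dissection of the normal glands sets these falls was not tested.

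In lipid synthesis the genes took different shapes. Scd1, a fatty acid desaturase, fell by 4.43 in the first step and then showed -0.32, and Elovl6, an elongase, fell by 1.48 and 1.64. Fasn, fatty acid synthase, had a called fall in the second step alone (by 2.07). Its normal replicate 5 stood at 10.61, where the other pools lay between 12.46 and 12.92, so a fall in the first step is not shown to be absent. Sqle, squalene epoxidase of the cholesterol branch, went the other way, rising by 2.23 in the second step.

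Thyroid hormone synthesis genes mostly fell, but by different routes. Of 11 measured, 8 had a called falling slope and 1 a called rising one (against 30.4% and 24.3% of all genes), and 1 dipped in PTC (against 5.31%). By called steps, Iyd, Tshr and Slc5a8 fell in both, Slc5a5, Slc26a7, Duoxa2 and Dio1 in the first alone and Tg in the second alone. A step that was not called is not shown to be absent, and every PTC array was below every normal pool for Tg. The median slope was -1.85, and the list mean relative to normal was -2.0 to -1.42 in PTC and -4.01 to -2.07 in ATC, the last in replicate 4. Slc5a5, the iodide pump, gave 7.06 to 7.63 (median 7.26) in normal, 6.65, 6.62, 6.50 and 6.81 in PTC and 6.78, 6.76, 6.60, 6.27 and 6.34 in ATC, an early fall of 0.67 followed by -0.10. Slc26a4, pendrin, an apical anion carrier, peaked in PTC at 8.69, 7.05, 6.46 and 5.56 with all other arrays at or below 5.23. Of the lineage factors, Nkx2-1 fell by 0.45 in the second step alone and Hhex rose by 0.69 and then fell by 2.40, so Pax8 was the member of the 3 that fell in both. The Nkx2-1 means were 6.36 in normal, 6.15 in PTC and 5.70 in ATC, below the array medians of 7.45 to 7.58. Its slope was not called under the 2-fold threshold, and at this low signal a step may be missed.

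Output genes of the ERK pathway mostly rose, at different steps. A rising slope was called for 12 of 17 (against 24.3% of all genes) and a falling one for 1. Of the 17, 5 rose in both steps (against 3.59%), 4 in the first alone (against 7%) and 1 in the second alone (against 10.7%), while 3 peaked (against 6.17%) and 1 dipped (against 5.31%). Fosl1, an AP-1 subunit held up by ERK activity, gave 5.10 to 5.51 (median 5.41) in normal, 6.46, 6.43, 7.23 and 6.73 in PTC and 9.13, 9.08, 8.88, 8.44 and 8.84 in ATC, with no overlap (slope 1.74, SE 0.08, limma adjusted p = 3.16e-10). The other probe set of Fosl1 gave a smaller slope of 0.59 with a departure of -0.51, against -0.41 here. Lif, a cytokine of the interleukin 6 family, rose by 2.21 and 1.69 with a slope of 1.95, where its other probe set gave 0.23, and Ier3, an immediate early gene, rose by 1.50 and 2.26. Dusp6, the phosphatase that switches ERK off, gave 9.83 to 10.38 (median 10.18) in normal, 12.18, 12.17, 12.43 and 12.28 in PTC and 11.95, 11.81, 12.66, 12.25 and 12.23 in ATC. It reached its level in PTC (2.12, then -0.08), as did the cyclin Ccnd1 (3.41, then -0.46). Spred1, an inhibitor of Ras signalling, peaked with 11.83, 12.15, 12.31 and 12.12 in PTC above all other arrays, the highest of which was ATC replicate 4 at 11.29.

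TGF-beta and activin genes rose by slope in 12 of 15 cases (against 24.3% of all genes), 4 in both steps (against 3.59%). Inhba, the activin A subunit, rose by 1.56 and 2.91, and Tgfb1 by 1.07 and 1.71. Fst, follistatin, which binds activin, rose in the second step alone (2.50). Inhbb, the activin B subunit, peaked with a departure of 3.19, although its other probe set gave 0.35. Of 10 measured EGF receptor family and ligand genes, 4 had a called rising and 2 a called falling slope (against 24.3% and 30.4% of all genes). By called steps, 2 fell in the first alone and 1 in the second alone. Among the ligands that rose, Hbegf did so in both steps (2.39 and 0.86), Ereg in the first (6.94) and Btc in the second (2.50). The receptor Erbb2 peaked with a departure of 1.24 that was lost with the Gapdh covariate (adjusted p = 0.244).

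Glycolysis and hypoxia genes included several dips. Of 17 measured, 8 had a called departure below the line (against 16.1% of all genes) and 6 dipped (against 5.31%): Hk2, Pgk1, Pgam1, Adm, Egln3 and Pdk1. Egln3, a prolyl hydroxylase induced by low oxygen, gave 7.78 to 8.19 (median 7.87) in normal, 6.18, 6.04, 6.18 and 6.66 in PTC and 9.47, 8.40, 8.10, 6.91 and 7.22 in ATC. PTC was lower than all other arrays, and the departure was -1.71 (SE 0.32, limma adjusted p = 0.00102). Pgk1, a glycolytic kinase, had a departure of -0.81, with PTC at 11.56, 11.24, 11.33 and 11.82 and normal pools at 12.07 to 12.21 (median 12.14). Bnip3, a mitophagy receptor, fell in the first step (by 1.82), and its slope of -0.55 (adjusted p = 0.0199) was not called without normal replicate 2 or 3 (0.0516 and 0.051), with the Gapdh covariate (0.108), with all 24 arrays (0.0806) or with number titles as a block (0.69). Endothelial genes were low in PTC too: 12 of 16 had a called departure below the line (against 16.1% of all genes), 8 fell in the first step alone and 3 dipped. Kdr, the main VEGF receptor, fell by 1.31 and then showed -0.20, and Emcn, endomucin, dipped with a departure of -1.44 that was not called with the Gapdh covariate (adjusted p = 0.647).

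Cartilage markers, of trachea and larynx beside the gland, gave no common shape. By slope 3 of 9 were called rising and 2 called falling, counts near the shares over all genes (24.3% and 30.4%). Comp, a matrix protein of cartilage and tendon, peaked with a departure of 3.32, and Acan, aggrecan, rose by 3.71 in the second step alone.

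The genes named in the title of the series took separate courses. Braf read 5.95 to 6.67 (median 6.21) in normal, 7.81, 7.95, 7.58 and 7.78 in PTC and 11.98, 11.62, 10.83, 10.29 and 11.84 in ATC. No group overlaps another, the slope was 2.51 (SE 0.13, limma adjusted p = 1.24e-09), and the departure of -1.0 was called (adjusted p = 0.00647), since the first step was 1.53 and the second 3.54. Whether the probe set reads the mouse gene alone was not tested. Met gave 4.96 to 5.34 (median 5.14) in normal, 5.29, 5.33, 5.09 and 4.98 in PTC and 5.48, 5.10, 6.15, 5.44 and 5.90 in ATC, overlapping levels with a slope of 0.23 (adjusted p = 0.0203) and no called step. That slope was not called in JK-titled arrays (adjusted p = 0.245), with the Gapdh covariate (0.105), with number titles as a block (0.507), with all 24 arrays (0.451) or without ATC replicate 3 or 5 (0.0628 and 0.0639). Hgf, its ligand, gave 4.90 to 5.60 (median 5.25) in normal, 5.24, 4.97, 5.30 and 5.16 in PTC and 5.47, 5.45, 5.25, 5.75 and 5.39 in ATC, and its slope of 0.10 (SE 0.07) was not called (adjusted p = 0.271). Met and Hgf read below the array medians of 7.45 to 7.58, and both fell below the 25th percentile of the filter on dim genes. At such low signal a change may be missed, and whether these probe sets detect their transcripts was not tested.

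The Hgf and Met list, with proteases that activate Hgf and their inhibitors, had 11 measured genes. Of these, 1 rose in both steps (against 3.59% of all genes) and 3 peaked (against 6.17%). In the second step alone, 2 rose (against 10.7%) and 2 fell (against 12.2%). The membrane protease St14 peaked (1.24, then -2.67), as did the protease hepsin, Hpn (0.81, then -2.25), and the inhibitor Spint1 (0.89, then -1.94). St14 and Spint1 were not called for departure with the Gapdh covariate (limma adjusted p = 0.0703 and 0.37) or with all 24 arrays in the fit (0.0613 and 0.11). Hgfac, the Hgf activator, rose in the second step alone (2.78), with ATC from 5.73 to 9.39, and the plasminogen activator Plat rose in both steps (1.49 and 2.79).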

How the data were processed

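Gene expression of 15 mouse thyroid samples, 6 normal pools, 4 PTC and 5 ATC, was taken from the series matrix. The deposited log2 values of 22690 probe sets were made by the authors with RMA run in Partek, according to the submitters' processing notes. Both versions were not given in the sources used here. Since RMA forces a shared distribution on the arrays, it hides any shift common to most genes. Levels near the top of the scale may be compressed, which was not tested. Those of Sftpa1, Sftpb, Sftpd and Dlk1 in PTC and of Tg and Pth in normal pools lie there. Values of the 15 arrays ran from 2.75 to 14.96. Arrays give no read depth, and their number limits the precision.

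Gene names came from the platform annotation, where 20393 probe sets had 1 gene symbol, 691 several and 1606 none, and the last 2 kinds were not tested. Symbols were updated by gene identifier with RefSeq of GRCm38.p6 (20364 matched, 29 kept the symbol of the annotation), and 13 control probe sets were left out. For a gene with several probe sets, the brightest on average over the 24 arrays stood for it. This left 12393 genes, 7437 of which had a single probe set. Groups come from the tissue label. Replicate numbers follow record order and pair nothing. All 24 columns of the matrix matched a sample, and among 105 pairs of the 15 arrays 0 were identical (correlations 0.873 to 0.993).

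Group means of normal, PTC and ATC were estimated with limma 3.58.1 (R 4.3.3, the package data.table in version 1.17.8), with 12 residual degrees of freedom. Slope, departure, both steps and ATC minus normal were tested on its moderated statistics. P-values were adjusted over 12393 genes by Benjamini-Hochberg, with calls below 0.05. The tables and figures were made with Python 3.11.15, pandas 2.3.3 and matplotlib 3.10.9. On simulated data with 50 genes changed in each of 4 ways among 12393, 82% of slopes of 0.5, 98% of slopes of 1, 78% of departures of 1 and 98% of departures of 2 were recovered. Unchanged genes made up 29 of 120 slope calls and 7 of 95 departure calls, both shares above the threshold of 0.05. The simulation changed few genes and drew each independently, while 54.7% of genes had a called slope in the data. Its rates therefore need not hold for the data.

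The genes named are the 8 of each pattern with the largest smaller step, the 5 largest rises and falls by slope, the 3 most even risers and fallers with both steps over 1, up to 3 slope and 2 departure calls of each list, and Braf, Tg, Pax8, Slc5a5, Dusp6, Mki67, Met and Hgf. This rule names 160 genes, of which the text gives a part. Meg3, Rian and further list members were named after their values were seen. The arrays, lists and tests were chosen with earlier results of these data known. Alternatives were other fits, title series as a block or alone, other handling of probe sets, other normalizations, a filter on dim genes (below the 25th percentile), a 2-fold threshold, other slope estimates, leaving out each array and, chosen after seeing the data, the Gapdh covariate.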

Additional observations from a re-analysis of the deposited data

Results flagged for a closer look

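In 465 groups of 4 to 6 arrays, over the genes and list means described above, the highest or lowest array was compared with the rest by Dixon's test. In 63 of them the gap to its nearest neighbour was too large a part of the group's range at the 95% level, which chance gives in about 1 in 20 groups. Of the 63, 34 were normal replicate 5, a pool with Cre in its title, and 12 were ATC replicate 4.

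Several genes were higher in normal replicate 5 than in the other 5 pools. Timp1 stood at 8.93 there, Ptgs2 at 7.12, Emp3 at 9.61, Chil3 at 6.19, Inhba at 8.11, Clec4n at 8.83, Mmp13 at 6.72, Plau at 7.32, St14 at 10.61 and Ereg at 7.20. The peak genes Sftpa1 (7.18), Sftpd (9.32), Slc34a2 (9.88) and Fetub (6.15) were also higher in that pool. Lower than in the other pools were Meg3 at 8.97, Rian at 6.45, Snap25 at 4.66, Ptger3 at 7.78, Ccl11 at 8.01, Ucp1 at 5.60, Scg2 at 8.10, Sdhb at 11.22, Scd1 at 12.76 and Fasn at 10.61. Its list means relative to the normal mean were 0.59 for epithelial junction, 0.47 for TGF-beta and activin, 1.31 for macrophage, 1.05 for B and plasma cell, 1.00 for surfactant and 1.11 for matrix metalloproteinase genes. They were -1.91 for adipocyte, -1.52 for C cell, -0.13 for glycolysis and hypoxia and -0.55 for respiratory chain genes.

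ATC replicate 4 was above the other ATC arrays in the thyroid genes Tg (13.48), Iyd (9.99), Dio1 (7.90) and Slc4a5 (7.07), and in Col8a1 (12.76), Rian (9.85), Sdf2l1 (9.52), Ereg (11.72) and Btc (11.01). It was below them in Spint1 (7.36). Its list mean was -2.07 for thyroid hormone synthesis, where the others lay between -4.01 and -3.52, and -1.42 for epithelial junction, where they lay between 0.17 and 0.60.

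The remaining arrays stood apart in 1 to 3 cases each. ATC replicate 1 was low in Cdh2 (6.67). ATC replicate 2 was high in Dcpp3 (13.25) and in the airway list mean (3.82, the others at 0.86 or lower). ATC replicate 3 was high in Sftpa1 (8.92) and in the interferon list mean (-0.11). The respiratory chain list mean was lowest in ATC replicate 5 (-1.66). PTC replicate 1 was low in Pth (4.65), in Erbb2 (8.99) and in the parathyroid list mean (-5.43). PTC replicate 2 was low in Prkg2 (6.78), and high in Ppargc1a (8.10) and in the thyroid hormone synthesis list mean (-1.42). PTC replicate 4 was low in S100a8 (7.18) and Slc34a2 (9.86), and high in the glycolysis and hypoxia list mean (-0.22). Normal replicate 2 was high in Marco (5.67), and normal replicate 4 low in Slc39a8 (7.25).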

How the results depend on the processing

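The 6 counts were recomputed under 14 alternatives and with the Gapdh covariate chosen after seeing the data, and the trend count under 2 more that give a slope alone. In the order trend, departure, rising, falling, peak and dip, they were 6776, 3895, 445, 498, 765 and 658. A 2-fold threshold gave 1259, 153, 7, 6, 54 and 6. A fit of all 24 arrays gave 4219, 1175, 34, 71, 271 and 128. The Gapdh covariate gave 1183 departures, 96 rising, 146 falling, 296 peaking and 243 dipping genes, and the trend count stayed within 1.5 times. Array weights gave 742 rising and 796 falling genes, and JK-titled arrays alone 752 falling genes. Testing each of 20380 probe sets gave 10605 trend calls, 6244 departures and 1037 dips, from more features tested. The cause of the other shifts was not tested. Leaving out single arrays gave 6293 to 6893, 2780 to 4270, 330 to 556, 376 to 624, 573 to 830 and 447 to 734. The share of slope calls that rose was 44.5%, and 42.4% with median centring, under which the median second step over all genes was -0.12 in place of -0.06.

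Of 123 slopes or departures followed for genes named in the text, 122 were called, 97 kept the call under every setting run and 25 lost it under at least 1: 21 under the 2-fold threshold, 12 with the Gapdh covariate, 6 with all 24 arrays, 4 in JK-titled arrays alone, 4 with number titles as a block, 1 with a straight line and 2 when an array was left out. None changed sign where it was called. No paired analysis was possible because the labels give the groups no shared replicate numbers. The precision is limited by 4 to 6 arrays a group, PTC comes from JK titles alone, and its Gapdh 3′ minus 5′ difference lies above that of every other array, so group and array quality cannot be fully told apart.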
